A study of Mus musculus with 5 samples.

Results

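The clustered protocadherins are the genes whose mouse symbols start with Pcdha, Pcdhb or Pcdhg. They were taken here as every protein-coding gene with such a symbol in GENCODE M21, which gave 57 of the 55573 genes in the count tables: 14 alpha, 22 beta and 21 gamma genes. All lie on the plus strand of chromosome 18 (GRCm38), with the alpha cluster at chr18:36930184-37187661, the beta cluster at chr18:37264938-37524479 and the gamma cluster at chr18:37661793-37841873. Pcdhgb8, which lies in the gamma cluster but is annotated as a polymorphic pseudogene, was left out. The annotation gives the symbol Pcdha11 to a pair of genes, and the one with the identifier ENSMUSG00000007440 starts where RefSeq places Pcdha10, so it is called Pcdha10 below.

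Clustered protocadherins are cell adhesion proteins found mainly on neurons. In the alpha and gamma clusters each gene brings a large variable first exon with its own promoter, which is spliced to constant exons that all genes of the cluster share, whereas each beta gene is a single exon. Single neurons choose a few of these promoters at random, through CTCF and cohesin and with DNA methylation silencing the rest, and the proteins then bind like to like across membranes, which lets a neuron recognise its own branches. The C-type genes (Pcdhac1, Pcdhac2, Pcdhgc3, Pcdhgc4 and Pcdhgc5) stand at the ends of the alpha and gamma clusters and differ from the others in that they are not chosen at random.

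The values come from RNA sequencing of the right hemisphere of female C57BL/6 mice that carried a GL261 glioma, a mouse glioma line marked with luciferase and mKate2, in the caudate-putamen of that side. The mice had been inoculated at an age of 7 to 8 weeks and were taken into the study once bioluminescence showed a growing tumor. In 3 mice (vehicle replicates 1 to 3) the treatment was inVivoPure pH 6.5 Dilution Buffer, and in 2 mice (UMBO replicates 1 and 2) it was ultrasound-mediated opening of the blood-brain barrier, in which low-intensity pulsed ultrasound acts on injected SonoVue microbubbles in the vessels. Sessions fell on days 21 and 24, and tissue was taken 24 h after the second. No mouse without a tumor was analysed here, each library is 1 mouse, and a hemisphere holds brain, tumor and immune cells together. The total count lay between 59736771 and 86164159 per library.

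One library stood apart from the other four. On the axis that held 78.7% of the variance among the libraries, UMBO replicate 2 lay at 133.7 and the others between -68.4 and 17.0. Marker genes of cell types differed in the same library. The summed CPM (a gene's counts relative to the library's total, in ppm, scaled between libraries by edgeR's TMM method) of 10 neuronal markers was 10108, 6909 and 7303 in the vehicle replicates, 7328 in UMBO replicate 1 and 3633 in UMBO replicate 2. Those of 10 proliferation genes summed to 49.97, 108 and 36.5 CPM with vehicle, and to 114 and 465 CPM in UMBO replicates 1 and 2. The sum of 10 myeloid markers was 315, 834 and 430 CPM with vehicle, against 854 and 1888 CPM with UMBO. In bulk tissue of this kind fewer cells of a type and less RNA per cell cannot be told apart. Results that rest on UMBO replicate 2 are therefore given with and without it.

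What a count of these genes measures depends on the shared exons. Among genes whose exon bases are all shared with another gene on the same strand, 1 of 765 had more than 10 counts over the 5 libraries, against 178 of 457 genes that share all their exon bases with genes of the opposite strand alone. So the deposited counts were made with strand, and a read on exon shared by several genes was given to none of them. For the alpha and gamma genes the counts are thus mostly reads of the variable exons: between 8.56% and 61.1% of an alpha gene's exon bases and between 33.2% and 68.5% of a gamma gene's belong to no other gene, while the share was 90.3% to 100% for the beta genes. Levels of single genes are compared below as CPM per kb of this unshared exon. Cluster sums, shares and the correlations between libraries use plain CPM, so they also depend on how much exon is counted for each gene. Pcdha4 is the extreme, with 494 of its 5768 exon bases unshared, because the annotated read-through gene Gm42416 covers its variable exon. It had 1, 0 and 0 counts with vehicle and 1 and 0 with UMBO, failed the filter on low counts and could not be measured. The sequences of the variable exons also resemble each other. Windows of 100 bases along each first exon were looked up in the other members. At most 9.65% occur there for an alpha gene (Pcdha11), 7.73% for a beta gene (Pcdhb21) and 37.4% for a gamma gene (Pcdhga4). Exons of Pcdhb21 and Pcdhga4 overlap those of Pcdhb22 and Pcdhgb1 in the genome, so these beta and gamma maxima reflect a shared position. The unshared exon already leaves those bases out. Reads from windows that recur at another position may map to more than one gene.

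Together the 57 genes took 0.0494%, 0.0330% and 0.0449% of all counts in the vehicle replicates, and 0.0387% and 0.0154% in UMBO replicates 1 and 2. The summed level of the alpha cluster was 58.8, 25.0 and 43.6 CPM with vehicle and 31.4 and 4.69 CPM with UMBO. Beta genes summed to 153, 107 and 133 CPM with vehicle and to 110 and 55.2 CPM with UMBO. For the gamma cluster, which had the largest sums, they were 330, 194 and 280 CPM with vehicle and 244 and 80.7 CPM with UMBO. In all 3 clusters UMBO replicate 1 lay within the range of the vehicle libraries and UMBO replicate 2 lay below all other libraries, so the groups overlapped. UMBO replicate 2 held 11.0% of the vehicle mean for the alpha cluster, 42.2% for the beta cluster and 30.1% for the gamma cluster, and UMBO replicate 1 held 74.0%, 83.9% and 91.1%.

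**Figure D1:**
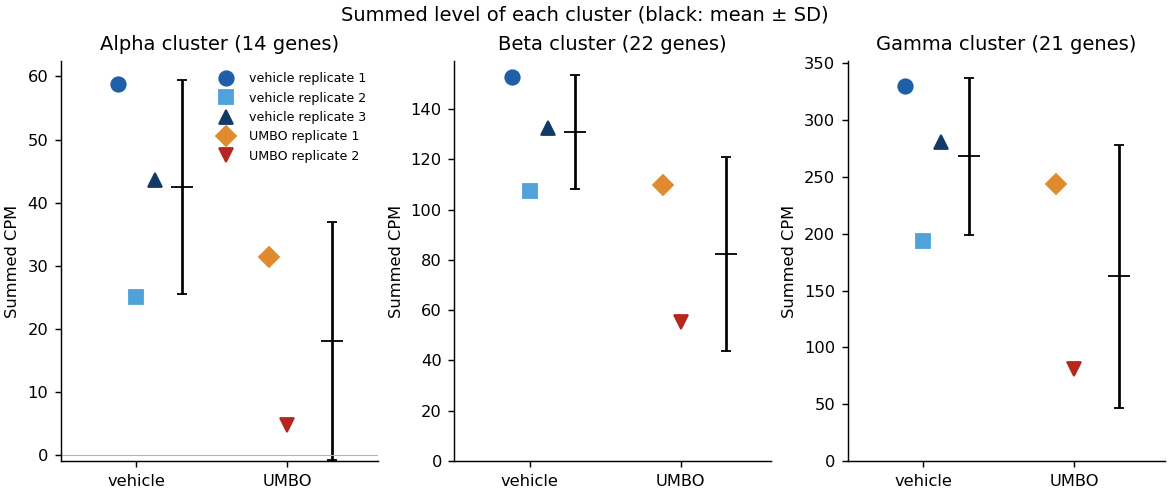
Summed CPM of the alpha (14 genes), beta (22 genes) and gamma (21 genes) clusters in each library, with vehicle and UMBO on the x axis and the mean ± SD of each group in black (n = 3 and n = 2). In each panel UMBO replicate 1 sits among the vehicle libraries and UMBO replicate 2 sits below all of them, at 4.69, 55.2 and 80.7 CPM.

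As group means, the alpha cluster was at 42.5 ± 16.9 CPM with vehicle (SD, n = 3) and 18.1 ± 18.9 CPM with UMBO (SD, n = 2), a log2 ratio of -1.23. The beta cluster was at 131 ± 22.8 and 82.5 ± 38.6 CPM, a log2 ratio of -0.67. The gamma cluster was at 268 ± 69.3 and 162 ± 116 CPM, a log2 ratio of -0.72. The groups overlapped in each cluster and the differences rest largely on 1 library: without UMBO replicate 2 the log2 ratios were -0.43, -0.25 and -0.13. Without UMBO replicate 1 they were -3.21, -1.27 and -1.76.

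The balance of the clusters also differed in UMBO replicate 2. Alpha genes made up 10.9%, 7.68% and 9.55% of the CPM of all members with vehicle, and 8.15% and 3.33% in UMBO replicates 1 and 2. Beta genes made up 28.2%, 32.9% and 29.0% with vehicle, and 28.5% and 39.3% in UMBO replicates 1 and 2. The gamma share moved by the fewest percentage points, between 57.4% and 63.4% in the 5 libraries. Vehicle replicate 2 had the lowest alpha share and the highest beta share of the vehicle libraries, so it differed from the other vehicle libraries in the same direction as UMBO replicate 2 did.

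Gene by gene, 56 members had enough counts to be tested with edgeR's quasi-likelihood test, among 23592 genes. With Benjamini-Hochberg adjustment over all genes, none of them passed 0.05, as did 0% of all genes, and the smallest adjusted p of a member was 0.497. At an unadjusted p under 0.05, 2 of the 56 (3.57%) were lower with UMBO, the beta genes Pcdhb8 and Pcdhb12, beside 2.06% of all genes tested. No member was higher at that level, beside 5.3% of all genes. With DESeq2's Wald test 7 of the 57 members fitted had an unadjusted p under 0.05, each lower with UMBO, and none an adjusted p under 0.05. That test had no filter on low counts, and 1.90% of its 40435 genes were lower at the unadjusted threshold. The fitted log2 fold change was negative for 56 of 56 members tested, with the members sharing the same mice, and for 49.1% of all genes. Without UMBO replicate 2 it was negative for 51 of 56. The median over all genes was -0.01 in that fit, and the share of all genes below 0 was not counted. The counts of members called depended on single libraries. Without UMBO replicate 1, which leaves UMBO replicate 2 alone in its group, 34 members and 4543 of 24814 genes in all had an adjusted p under 0.05 by edgeR. The 34 were lower, beside 8.21% of all genes lower. At the unadjusted threshold 50 members were then lower, beside 19.6% of all genes. There were 0 when vehicle replicate 1 was left out (0.441% of all genes lower), 1 when vehicle replicate 3 was (0.937%) and 1 when UMBO replicate 2 was (0.710%).

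Both UMBO libraries lay below every vehicle library for 11 of the 56 members (19.6%), beside 11.4% of all genes, and above every vehicle library for none of them, beside 11.5% of all genes. Of those 11 genes, 8 were beta genes (36.4% of the cluster: Pcdhb8, Pcdhb12, Pcdhb14, Pcdhb15, Pcdhb17, Pcdhb18, Pcdhb20 and Pcdhb22), 1 was the alpha gene Pcdha7 and 2 were the gamma genes Pcdhga1 and Pcdhga12. UMBO replicate 2 was the lowest of the 5 libraries for 56 of 56 members and for 39.8% of all genes. Of the vehicle libraries, replicate 2 was the lowest for 55 of the 56, and the share of all genes was not counted. In vehicle replicate 2 the median was 72.8% of the vehicle mean over the members tested and 99.8% over all genes tested.

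The median log2 fold change was -1.24 over the 13 alpha genes tested, -0.66 over the 22 beta genes and -0.97 over the 21 gamma genes, beside 0.01 over all genes. The scatter between mice ran in the same order: the median coefficient of variation among the vehicle libraries was 38.9% for alpha, 18.8% for beta and 27.1% for gamma genes, and the median standard error of the log2 fold change was 0.759, 0.451 and 0.655, beside 0.351 over all genes. The medians depended on which UMBO library was left out. Without UMBO replicate 1 they were -2.98, -1.54 and -2.36, and without UMBO replicate 2 they were -0.44, -0.24 and -0.30. The difference between the clusters was not tested.

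**Figure D2:**
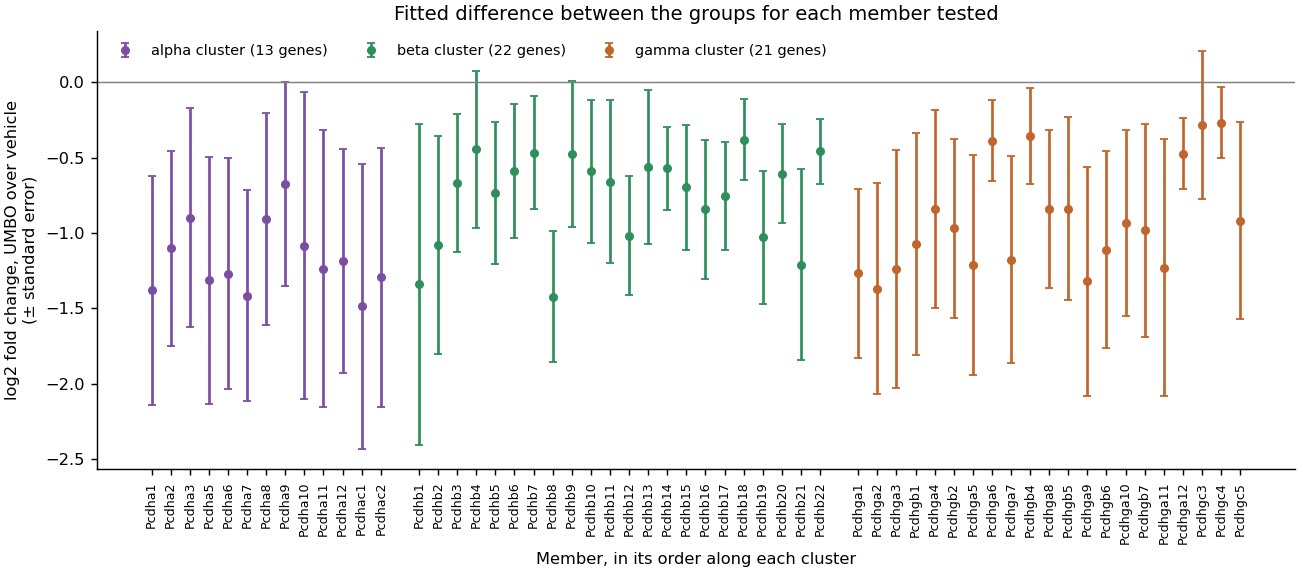
Fitted log2 fold change, UMBO over vehicle, with its standard error (edgeR), for the 56 members tested, in their order along the alpha, beta and gamma clusters. All points lie below 0, between -1.49 and -0.27, and the median standard error is 0.759 in the alpha, 0.451 in the beta and 0.655 in the gamma cluster.

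Among the alpha genes, which are numbered along the cluster and expressed in the brain through random promoter choice, the level per kb was low. Outside the C-type genes the mean over the 5 libraries ran from 0.101 CPM per kb for Pcdha8 to 1.18 CPM per kb for Pcdha12. Pcdha12 was at 5.59, 2.37 and 3.33 CPM with vehicle and at 2.76 and 0.534 CPM with UMBO, with a log2 fold change of -1.19. UMBO replicate 1 lay inside the vehicle range and UMBO replicate 2 far below it. Pcdha5 (0.880 CPM per kb) had the same pattern, at 3.70, 1.602 and 2.85 CPM with vehicle and 1.90 and 0.275 CPM with UMBO, with a log2 fold change of -1.31. For Pcdha8 the values were 0.468, 0.312 and 0.154 CPM with vehicle and 0.246 and 0.0763 CPM with UMBO. Here vehicle replicate 3 and not vehicle replicate 2 was the lowest of the vehicle libraries, as in no other member.

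Pcdha7, the alpha gene with the smallest p, was at 2.02, 1.36 and 2.67 CPM with vehicle and at 1.24 and 0.260 CPM with UMBO. Both UMBO libraries were below every vehicle library, UMBO replicate 1 by a small margin. The log2 fold change was -1.42 with a standard error of 0.700 and edgeR gave an unadjusted p of 0.0894 (adjusted p 0.497). Pcdha1, next by p, was at 1.42, 0.504 and 0.791 CPM with vehicle and 0.562 and 0.122 CPM with UMBO, with overlapping groups and a log2 fold change of -1.38. No alpha gene had a positive fold change, so none is named for that direction. In UMBO replicate 2 the 13 alpha genes stood at 6.07% to 24.5% of their vehicle means, with a median of 12.9%; in UMBO replicate 1 they stood at 61.5% to 101%. The whole cluster had 307 counts in UMBO replicate 2 against 1687 to 4400 in the vehicle libraries, so 6 members with 10 or fewer counts there, 5 of them alpha genes, carry a large counting error.

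Beta genes, whose single exons leave little or nothing shared, varied least between the vehicle mice. Their mean level ran from 0.0503 CPM per kb for Pcdhb1 to 2.66 CPM per kb for Pcdhb9. The 3 genes with the highest levels per kb were close to each other, with Pcdhb20 at 2.65 and Pcdhb17 at 2.63 CPM per kb. Pcdhb9 was at 11.3, 7.64 and 8.55 CPM with vehicle and at 9.85 and 3.28 CPM with UMBO, and its log2 fold change of -0.48 became 0.11 without UMBO replicate 2. UMBO replicate 1 was above the vehicle mean for this gene. Pcdhb20 was at 13.0, 9.41 and 10.3 CPM with vehicle and at 9.22 and 5.10 CPM with UMBO, a log2 fold change of -0.61, and both UMBO libraries lay below the vehicle range. Pcdhb17 was at 17.2, 12.4 and 14.4 CPM with vehicle and at 11.7 and 5.65 CPM with UMBO, a log2 fold change of -0.76 and again with no overlap.

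Pcdhb8 and Pcdhb12 had the smallest p of the members. Pcdhb8 was at 4.24, 2.83 and 3.34 CPM with vehicle and at 1.75 and 0.825 CPM with UMBO. Both mice treated with UMBO lay below the vehicle range, and UMBO replicate 1 was at 50.5% of the vehicle mean, the lowest value of any member tested in that library. The log2 fold change was -1.42 with a standard error of 0.434 and an unadjusted p of 0.0169 by edgeR (adjusted p 0.497). It stayed between -2.10 and -0.98 when single libraries were left out. Pcdhb12 was at 7.44, 5.47 and 6.57 CPM with vehicle and at 4.35 and 2.05 CPM with UMBO, also without overlap. Its log2 fold change was -1.02 with a standard error of 0.394 and an unadjusted p of 0.0415 by edgeR (adjusted p 0.497). When vehicle replicate 1 was left out, neither gene kept an unadjusted p under 0.05.

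Pcdhb1, the first gene of the cluster and set apart from the rest by its very low level, had 13, 6 and 22 counts with vehicle and 11 and 0 with UMBO. The 0 counts in UMBO replicate 2 allow up to 0.0458 CPM (3 counts, for counting error only), against 0.0890 to 0.260 CPM with vehicle. The other beta genes ranged from 0.419 CPM per kb (Pcdhb4) to 2.15 CPM per kb (Pcdhb22). Their log2 fold changes lay between -1.21 (Pcdhb21) and -0.38 (Pcdhb18), and none of them passed an unadjusted p of 0.05. Pcdhb21 and Pcdhb22 each had 356 windows of 100 bases that occur in another member, more than any other beta gene, because their exons overlap in the genome.

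Gamma genes of the A and B types, which like the alpha genes are chosen at random in single neurons, ran from 0.771 CPM per kb for Pcdhgb5 to 4.46 CPM per kb for Pcdhga11. Pcdhga11 was at 20.1, 9.79 and 16.0 CPM with vehicle, 11.7 CPM in UMBO replicate 1 and 1.33 CPM in UMBO replicate 2. That last value is 8.70% of the vehicle mean, the lowest of the gamma genes, and the log2 fold change was -1.23. Pcdhga6, of nearly the same level (4.28 CPM per kb), was at 14.2, 10.1 and 12.7 CPM with vehicle and at 11.1 and 7.73 CPM with UMBO, a log2 fold change of -0.39. The contrast between them was in UMBO replicate 2, where Pcdhga6 kept 62.5% of its vehicle mean. Pcdhgb6 (3.15 CPM per kb) was at 11.8, 7.55 and 11.5 CPM with vehicle and at 7.91 and 1.62 CPM with UMBO, a log2 fold change of -1.11. Pcdhgb5 was at 4.43, 3.46 and 5.09 CPM with vehicle and at 3.88 and 0.931 CPM with UMBO, a log2 fold change of -0.84.

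By the size of p, Pcdhga1 and Pcdhga12 came first among the gamma genes, and in both the groups did not overlap. Pcdhga1, the first gene of the cluster, was at 4.16, 2.51 and 3.61 CPM with vehicle and at 2.16 and 0.672 CPM with UMBO. Its log2 fold change was -1.27 with a standard error of 0.560 and an unadjusted p of 0.0643 by edgeR (adjusted p 0.497). Pcdhga12, the last of the A type, was at 18.1, 13.2 and 14.7 CPM with vehicle and at 12.4 and 9.65 CPM with UMBO. Its log2 fold change was smaller, -0.48, with a standard error of 0.236 and an unadjusted p of 0.0907 by edgeR (adjusted p 0.497). The other A and B genes had fold changes between -1.37 (Pcdhga2) and -0.36 (Pcdhgb4).

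**Figure D3:**
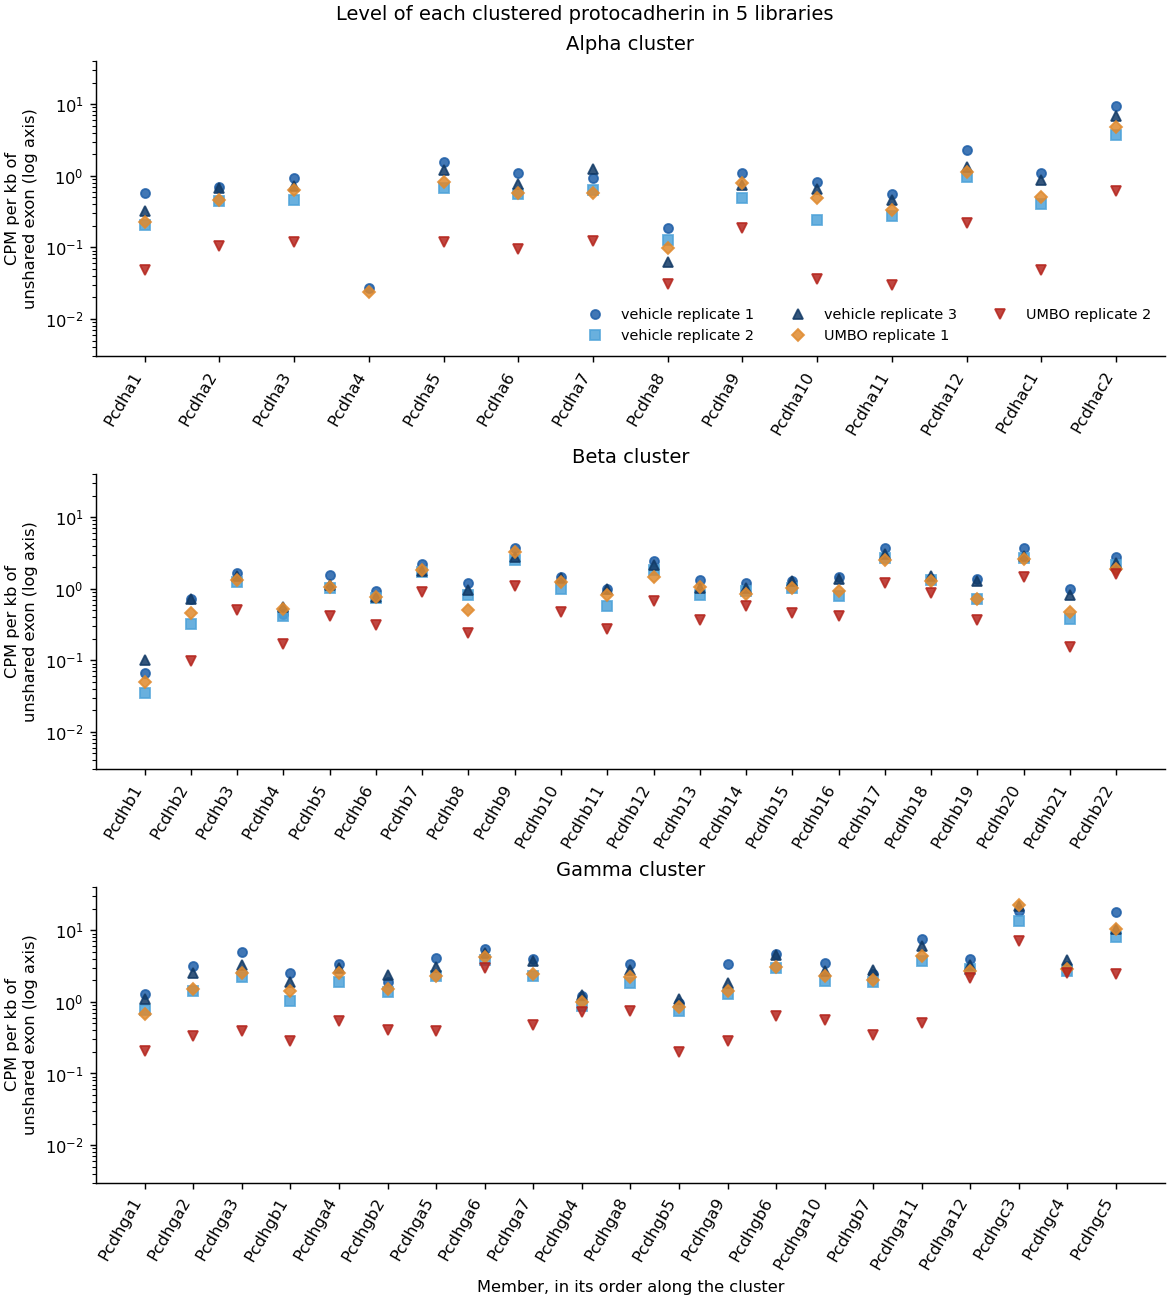
CPM per kb of unshared exon (log axis) for each member in each of the 5 libraries, in the order of the genes along the alpha, beta and gamma clusters; values of 0 (Pcdhb1 in UMBO replicate 2, and Pcdha4 in 3 libraries) are not drawn. UMBO replicate 2 has the lowest value for the 56 members tested, counting the value of 0 for Pcdhb1 that is not drawn. Pcdhac2 in the alpha cluster and Pcdhgc3 in the gamma cluster are the highest in each library.

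The C-type genes had a median level of 5.12 CPM per kb over the 5 genes, and by the mean over the libraries Pcdhgc3, Pcdhgc5 and Pcdhac2 had the highest levels of all members. Pcdhgc3, which is also expressed outside neurons, in astrocytes and the choroid plexus, and binds the Wnt regulator Axin1, had the highest level of all members at 16.6 CPM per kb. It was at 62.3, 46.0 and 73.0 CPM with vehicle, 75.6 CPM in UMBO replicate 1 and 23.7 CPM in UMBO replicate 2. No other member had its UMBO replicate 1 value above every vehicle library. The log2 fold change of -0.28 (standard error 0.490) became 0.32 without UMBO replicate 2. In that library the sum of 10 astrocyte markers was 2338 CPM, against 3911 to 5487 CPM with vehicle, and that of 10 choroid plexus markers was 516 CPM, against 838 to 893 CPM with vehicle. The astrocyte markers did not move alike, with 5 negative and 5 positive log2 fold changes and a median of -0.04. In UMBO replicate 2 Slc1a2 was at 765 CPM, against 1798 to 2887 CPM with vehicle. Aldh1l1 was at 89.1 CPM there, against 61.6 to 76.5 CPM. The part of astrocytes and choroid plexus cells in the value of Pcdhgc3 was not tested.

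Pcdhgc5, a gene of mature neurons whose protein binds GABA-A receptors, stood at 9.93 CPM per kb. It was at 83.9, 37.6 and 47.6 CPM with vehicle and at 48.4 and 11.3 CPM with UMBO, a log2 fold change of -0.92 with a standard error of 0.655. Pcdhgc4, needed for the survival of developing interneurons, kept the largest part of its vehicle mean in UMBO replicate 2 of all members tested. It was at 11.0, 9.49 and 13.3 CPM with vehicle, and at 9.86 and 8.86 CPM with UMBO. Its log2 fold change of -0.27 had the smallest size of all members tested, with a standard error of 0.234 and a range from -0.38 to -0.13 when single libraries were left out. The next gene along the chromosome, Pcdhgc5, and the previous one, Pcdhgc3, held 19.97% and 39.2% of their vehicle means in UMBO replicate 2, and Pcdhgc4 held 78.6%.

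Pcdhac2, which lets serotonergic axons spread apart from each other, had the highest level of the alpha genes at 5.12 CPM per kb. It was at 29.0, 11.3 and 20.8 CPM with vehicle and at 14.7 and 1.85 CPM with UMBO, a log2 fold change of -1.29 with a standard error of 0.860. Its share of the CPM of the alpha cluster stayed between 39.4% and 49.2% in the 5 libraries. Pcdhac1, its neighbour, was far lower (0.583 CPM per kb), at 2.78, 1.04 and 2.22 CPM with vehicle and at 1.30 and 0.122 CPM with UMBO. Pcdhac1 had the most negative log2 fold change of all members, -1.49, but with a standard error of 0.947 and 8 counts in UMBO replicate 2. None of the 5 C-type genes had an unadjusted p under 0.05 (0.167 to 0.584, quasi-likelihood test of edgeR).

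Members were not lower to the same extent in UMBO replicate 2. In that library 49 of the 56 members tested stood at 0% to 47.0% of their vehicle means, with a median of 19.97%, and 7 stood at 54.3% to 78.6%. A limit of 50% was set after these values had been seen, so the division is a description of 1 library. The 7 genes were Pcdhb14 (54.3%), Pcdhb18 (61.9%), Pcdhga6 (62.5%), Pcdhga12 (62.9%), Pcdhgb4 (65.8%), Pcdhb22 (66.8%) and Pcdhgc4 (78.6%), and the first below the limit were Pcdhb7 (47.0%) and Pcdhb20 (46.7%). In the gamma cluster the gap was wide, since the other 17 genes lay between 8.70% and 39.2%, with a median of 15.7%. In the beta cluster the step at the limit was small, and the other 19 genes lay between 0% and 47.0%, with a median of 34.3%.

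In vehicle replicate 2 the 7 genes were at 78.1% to 95.5% of their vehicle means, with a median of 86.2%. The 49 others, which include all 13 alpha genes tested, were at 43.0% to 100%, so the ranges overlapped. By cluster, the medians of the others there were 63.2% for alpha, 83.5% for beta and 69.0% for gamma genes. In UMBO replicate 1 the 7 genes were at 78.7% to 91.6% and the others at 50.5% to 125%. Because the 7 genes were picked for keeping more of their level in UMBO replicate 2, a larger share of their cluster there follows from the choice. Pcdhga6, Pcdhgb4, Pcdhga12 and Pcdhgc4 together made up 14.4%, 18.6% and 16.1% of the cluster's CPM with vehicle, against 15.2% and 35.8% in UMBO replicates 1 and 2. Pcdhgc3 alone made up 18.9% to 26.0% with vehicle and 29.4% in UMBO replicate 2, while Pcdhgc5 made up 17.0% to 25.4% with vehicle and 13.95% in UMBO replicate 2. In the beta cluster Pcdhb22 made up 10.7% to 12.3% in the first 4 libraries and 17.97% in UMBO replicate 2. The proliferation and myeloid sums given above are highest in the same library, and their part in these values was not tested.

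**Figure D4:**
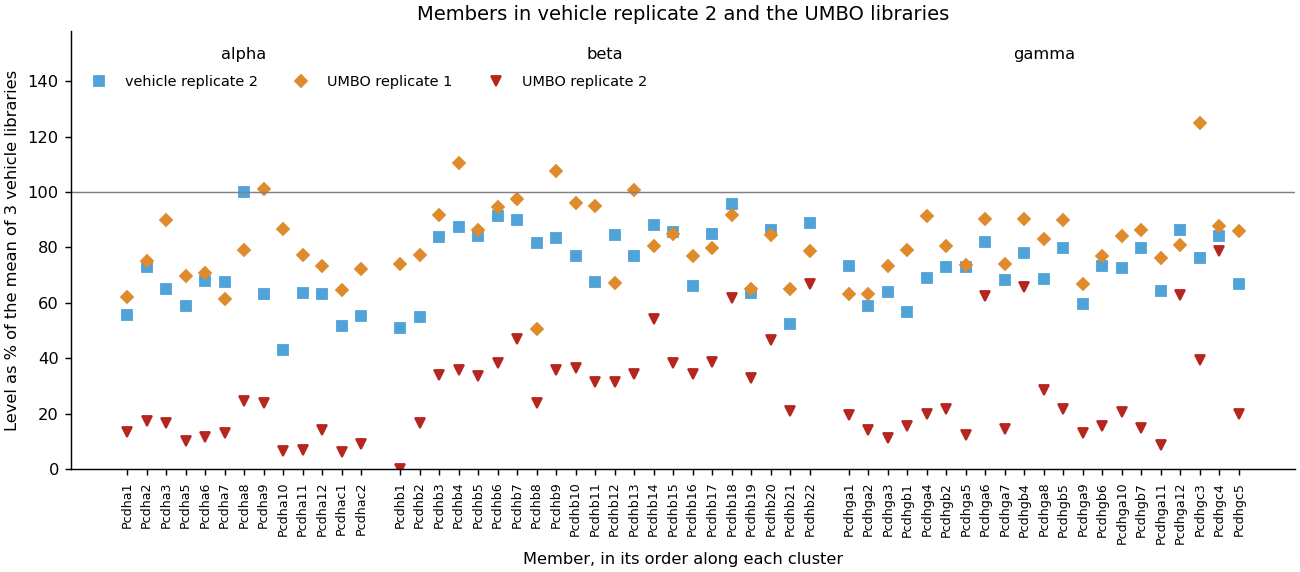
Level of each of the 56 members tested in vehicle replicate 2, UMBO replicate 1 and UMBO replicate 2, as a percentage of the mean of the 3 vehicle libraries (line at 100%), in gene order along each cluster. In UMBO replicate 2 the alpha genes lie at 6.07% to 24.5%, and Pcdhga6, Pcdhgb4, Pcdhga12 and Pcdhgc4 stand out from the other gamma genes at 62.5% to 78.6%.

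Within a cluster the order of the genes by level was much alike between mice for the beta genes. Spearman's rho between pairs of libraries over the 22 beta genes lay between 0.933 and 0.984, over the 13 alpha genes between 0.686 and 0.916 and over the 21 gamma genes between 0.655 and 0.982, with the lowest alpha and gamma values between vehicle replicate 1 and UMBO replicate 2. These are descriptions over genes that share the same libraries. Position along the cluster was a weak guide to level: rho between a gene's order and its CPM per kb, leaving out the C-type genes, was 0.19 over 11 alpha genes, 0.40 over 22 beta genes and 0.35 over 18 gamma genes.

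The clusters were also set against the neuronal markers, gene by gene and as sums. The neuronal list had 9 of 10 genes with a negative fold change, a median of -0.41 and none with an unadjusted p under 0.05 by edgeR's test, and in UMBO replicate 2 its sum was 44.8% of the vehicle mean. The beta sum was 1.51%, 1.55% and 1.81% of the neuronal sum with vehicle and 1.498% and 1.52% with UMBO. The beta cluster thus stood in nearly the same ratio to this neuronal sum in UMBO replicate 2 as in 2 of the vehicle libraries. The alpha sum was 0.582%, 0.362% and 0.597% of the neuronal sum with vehicle, and 0.429% and 0.129% with UMBO. For the gamma sum the ratios were 3.27%, 2.80% and 3.84% with vehicle, and 3.33% and 2.22% with UMBO. In UMBO replicate 2 the alpha and gamma ratios were thus lower than in the 4 other libraries. The ratio depends on which 10 neuronal genes are summed, and the markers were not lower to the same extent. In UMBO replicate 2 Snap25 was at 824 CPM, against 1923 to 3214 CPM with vehicle. Rbfox3 was at 223 CPM there, against 252 to 360 CPM, and Tubb3 at 300 CPM, against 278 to 321 CPM. The difference between clusters was not tested.

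**Figure D5:**
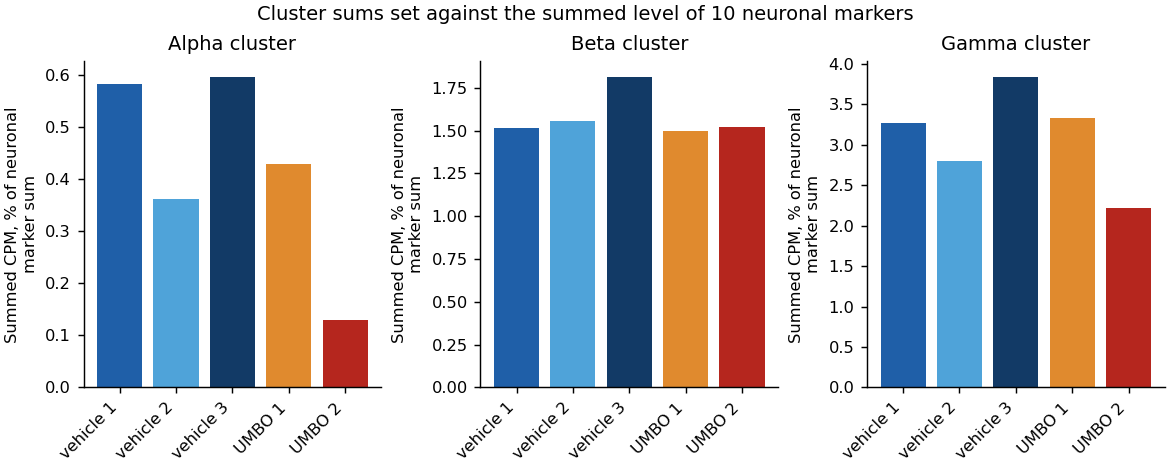
Summed CPM of each cluster as a percentage of the summed CPM of 10 neuronal markers, 1 bar per library, with separate y axes that start at 0. In UMBO replicate 2 the ratio is 0.129% for alpha and 2.22% for gamma, the lowest bars of their panels. The beta bar of 1.52% lies within the range of the vehicle libraries, 1.51% to 1.81%.

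The genes for proteins that govern the choice of these promoters had fold changes nearer to 0. Of 20 such genes (CTCF, cohesin and its loaders, DNA methyltransferases and other chromatin factors), 20 were tested, 16 had a negative and 4 a positive log2 fold change, with a median of -0.14 beside 0.01 over all genes, and none passed an unadjusted p of 0.05 in either direction by edgeR's quasi-likelihood test. Their sum was 1613, 1297 and 1561 CPM with vehicle and 1399 and 1220 CPM with UMBO. Tet1, which oxidises methylated cytosine, was at 15.5, 10.3 and 20.6 CPM with vehicle and 11.8 and 4.86 CPM with UMBO, a log2 fold change of -0.89. In the other direction, Dnmt3b, the enzyme that methylates these promoters during development, was at 1.02, 1.31 and 1.29 CPM with vehicle and at 1.44 and 1.85 CPM with UMBO, a log2 fold change of 0.45. Its UMBO values were above every vehicle value. The cohesin subunit Smc3 had a log2 fold change of 0.14, which was -0.0089 without UMBO replicate 2.

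A further list of 18 genes covered partners and processing enzymes of the clustered protocadherins. It included proteins that link them to kinases and to the actin-regulating WAVE complex or cut them at the membrane. The membrane proteins Nlgn1, Nlgn2 and Ret were also in it. Of the 18 genes, 12 had a negative and 6 a positive log2 fold change, with a median of -0.21, and none had an unadjusted p under 0.05 by edgeR. Their sum was 4503, 3308 and 3496 CPM with vehicle and 3668 and 2201 CPM with UMBO. Cyfip2, a WAVE complex subunit that is abundant in neurons, was at 1128, 642 and 788 CPM with vehicle and 659 and 254 CPM with UMBO, a log2 fold change of -0.90. The synaptic adhesion gene Nlgn1, whose protein gamma protocadherins bind, had a log2 fold change of -0.53. Brk1, the smallest WAVE subunit, was at 0.24, and Marcks, a kinase substrate at the membrane, was at 0.22.

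The 12 protocadherin genes outside the clusters, each with its own locus, were mostly lower with UMBO as fitted. Of these 12, 9 had a negative and 3 a positive log2 fold change, with a median of -0.34, and none an unadjusted p under 0.05 by edgeR. They summed to 1172, 820 and 1057 CPM with vehicle and to 948 and 478 CPM with UMBO, the latter 47.0% of the vehicle mean in UMBO replicate 2. Pcdh10, which takes part in axon growth and synapse removal, was at 229, 156 and 194 CPM with vehicle and at 150 and 71.7 CPM with UMBO. Its groups did not overlap, with a log2 fold change of -0.80 and an unadjusted p of 0.0718 (adjusted p 0.497, edgeR's quasi-likelihood test). Pcdh11x had a log2 fold change of -0.58. In the other direction, Pcdh12, a protocadherin of endothelial cells, was at 0.481, 0.356 and 0.532 CPM with vehicle and at 0.643 and 0.702 CPM with UMBO, a log2 fold change of 0.56. The sum of 10 endothelial markers was 185, 257 and 253 CPM with vehicle and 313 and 353 CPM with UMBO. Of these markers, 9 had a positive and 1 a negative log2 fold change, but they did not move alike in UMBO replicate 2. Ly6c1 was at 83.5 CPM there, against 12.8 to 32.6 CPM with vehicle, and Slco1a4 at 25.1 CPM, against 42.3 to 56.9 CPM. The part of endothelial cells in the value of Pcdh12 was not tested. Pcdh8 had a log2 fold change of 0.09, which was -0.75 without UMBO replicate 1.

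The pseudogene Pcdhgb8, in the gamma cluster but outside the rule, was at 2.58, 2.30 and 1.70 CPM with vehicle and at 2.29 and 1.65 CPM with UMBO. It was little lower in UMBO replicate 2 than in vehicle replicate 3, its lowest vehicle library. Among the tested gamma genes Pcdhgc4 was also close to its lowest vehicle value there, at 8.86 against 9.49 CPM.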

How the data were processed

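Bulk RNA was sequenced from 3 vehicle and 2 UMBO hemispheres, grouped by the labels of the deposited samples; the paper describes 6 mice and the record 5. The authors mapped the reads with STAR 2.7.2a to GRCm38 and deposited raw counts per Ensembl gene. The annotation release and strand setting are not given in the sources used here. Symbols and exons came from GENCODE M21 and the start of Pcdha10 from RefSeq (GRCm38.p6).

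Counts were scaled by TMM, filtered with filterByExpr and fitted over 23592 genes in edgeR 4.0.16 (R 4.3.3) by its quasi-likelihood test, and p-values were adjusted by Benjamini-Hochberg (threshold 0.05). Fold changes are fitted log2 values, UMBO over vehicle. With 59736771 to 86164159 counts per library, counting error is small beside the spread between mice except for members with few counts. No pair of libraries agreed within sampling noise (chi-square per gene 58.1 to 727).

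The members, lists and tests were chosen with earlier results of these data known. Named were the C-type genes; per cluster, the 3 other members with the highest CPM per kb, the tested member with the lowest and the 2 with the smallest p in each direction; in each pathway list, the 2 of smallest p on either side; and members that failed the filter. One gene of a pathway list that this rule names is not reported here. Other members were named after their values were seen. Marker lists covered neurons, astrocytes, oligodendrocytes (sums of 6286, 6395 and 6283 CPM with vehicle, 6645 and 5698 CPM with UMBO), endothelial, choroid plexus and myeloid cells and proliferation.

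Alternatives were DESeq2 1.42.0 size factors, library size alone, no filter on low counts, DESeq2's Wald test, the replicate number as a block, and each library left out. The script was tested on simulated data.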

Additional observations from a re-analysis of the deposited data

How the results depend on the processing

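The 3 cluster medians were negative under every alternative tried, and the log2 ratios of the cluster sums under the other scalings and with each library left out, the alternatives run for them. Genes with an adjusted p under 0.05 numbered 0 among all genes with edgeR, 40 with DESeq2's Wald test, and 0 to 4543 when single libraries were left out. Members with an adjusted p under 0.05 numbered 0, and 0 to 34 with single libraries left out, the 34 without UMBO replicate 1. Members with an unadjusted p under 0.05 were lower in each case and numbered 2 with edgeR (2.06% of all genes lower), 13 without the filter on low counts (2.83%), 7 with DESeq2's Wald test (1.90%), and 0 without vehicle replicate 1 (0.441%) to 50 without UMBO replicate 1 (19.6%) with single libraries left out. The shares without the filter and with DESeq2's Wald test are of 40435 genes, those with at least 1 count. A fit with 1 UMBO library assumes that it varies like the vehicle libraries. With single libraries left out, the median log2 fold change ran from -2.98 to -0.44 for alpha, -1.54 to -0.24 for beta and -2.36 to -0.30 for gamma, and the log2 ratio of sums from -3.21 to -0.43, -1.27 to -0.25 and -1.76 to -0.13. The direction reversed in 4 named genes, whose log2 fold changes ran from -1.38 to 0.32 (Pcdhgc3), -1.51 to 0.11 (Pcdhb9), -0.0089 to 0.25 (Smc3) and -0.75 to 0.61 (Pcdh8). Of the other values of named genes, 300 kept their direction and their side of an adjusted p of 0.05, and 34 kept their direction and passed it, with the replicate block or without UMBO replicate 1. Scaling by library size alone moved the median of all genes to 0.13 and left 56 of 56 members negative. The causes of these changes were not tested.

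Fitted with the replicate block, edgeR gave 2337 genes in all and 24 members an adjusted p under 0.05, the 24 lower (3.85% of all genes lower), and 46 members, all lower, an unadjusted p under 0.05 (11.6% of all genes lower). The labels name no shared litter, day or cage. The deviations of same-numbered libraries correlated at 0.453 and 0.76, which with 2 UMBO libraries cannot establish pairs, so the samples share only a number.

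Depth limits the alpha genes most, with 307 counts for the whole cluster in UMBO replicate 2. The number of mice limits every comparison.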
